A study of Homo sapiens with 8 samples.

Results

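The genes described here are 9 genes of HLA class I antigen presentation: the heavy chain genes HLA-B, HLA-C, HLA-E and HLA-F, the light chain gene B2M, the peptide transporter genes TAP1 and TAP2, the tapasin gene TAPBP, and NLRC5. They were taken by symbol, and all 9 were found among 26443 genes with values. RNA came from C4-2B, an established prostate cancer line of the LNCaP lineage that grows without androgen, after 7 days in 1 of 4 conditions with 2 libraries each: DMSO as vehicle control, ENZ at 10 uM, EPZ6438 (EPZ) at 1 uM, and both agents together (Combination), for which the labels repeat no doses. ENZ is the usual abbreviation of the antiandrogen enzalutamide, while EPZ6438, or tazemetostat, blocks EZH2, the enzyme that methylates histone H3 in the repressive complex PRC2. All 8 libraries come from this 1 cell line, and nothing in the labels says whether the libraries of a group were separate cultures. The p-values therefore reflect the spread among these libraries alone, which may be technical.

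A class I molecule is a heavy chain paired with beta-2 microglobulin, the product of B2M, and it carries a short peptide to the cell surface for T cells to inspect. Peptides cut by the proteasome are pumped into the endoplasmic reticulum by the TAP1-TAP2 transporter, and tapasin holds the empty class I molecule to the transporter until a peptide is bound. HLA-E presents peptides that NK cell receptors read, HLA-F is a less well understood heavy chain, and NLRC5 is a transactivator that sits on class I promoters together with RFX proteins. PRC2 is known to keep class I genes and NLRC5 low in several tumour types.

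HLA-B, HLA-C, HLA-E and TAPBP were higher with either agent and highest with both. B2M was higher with EPZ and Combination but not, as deposited, with ENZ, and TAP2 was lower in Combination. HLA-B moved most: 5.46-fold higher in Combination than in DMSO. Levels are FPKM, fragments scaled to gene length and to library size, as deposited, and a fold is a ratio of mean FPKM. Tests used limma on log2(FPKM + 1), a scale that understates the change of low genes, over the 11874 genes averaging 1 FPKM or more, and a gene was called at a Benjamini-Hochberg adjusted p under 0.05. HLA-B, HLA-C, HLA-E, B2M and TAPBP passed that filter. HLA-F, TAP1, TAP2 and NLRC5, with means of 0.362, 0.862, 0.984 and 0.704 FPKM, did not, and their tests below come from a fit of 21026 genes without the filter.

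The promoters of these genes are shown because the heavy chain genes and B2M are known to share a set of upstream elements. RefSeq (GRCh38.p14) gave promoters for 7 of the 9 members, not HLA-E or NLRC5. Capitals mark an IRF core (AANNGAAA), an NF-kB consensus, a CCAAT box (CCAAT) and a CRE core (TGACG), each on either strand, and the letters before the RefSeq start are written 5′ to 3′ on the strand of the gene.
HLA-B, chr6:31357220-31357379, minus strand, bases 200 to 41 before the start: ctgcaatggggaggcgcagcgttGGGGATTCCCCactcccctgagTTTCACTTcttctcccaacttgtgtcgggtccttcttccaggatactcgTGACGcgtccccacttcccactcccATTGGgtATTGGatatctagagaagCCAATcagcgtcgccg
HLA-C, chr6:31272133-31272292, minus strand, bases 200 to 41 before the start: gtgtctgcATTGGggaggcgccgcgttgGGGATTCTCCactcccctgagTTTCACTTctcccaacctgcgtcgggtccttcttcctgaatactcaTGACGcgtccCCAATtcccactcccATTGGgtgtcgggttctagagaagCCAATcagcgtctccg
HLA-F, chr6:29723234-29723393, plus strand, bases 200 to 41 before the start: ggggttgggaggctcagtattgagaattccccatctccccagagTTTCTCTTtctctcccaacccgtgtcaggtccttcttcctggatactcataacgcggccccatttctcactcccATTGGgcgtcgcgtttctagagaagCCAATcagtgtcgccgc
B2M, chr15:44711357-44711476, plus strand, bases 160 to 41 before the start: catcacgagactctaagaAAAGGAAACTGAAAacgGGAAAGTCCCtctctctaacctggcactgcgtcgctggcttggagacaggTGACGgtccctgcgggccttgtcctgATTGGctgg
TAP1, chr6:32853755-32853854, minus strand, bases 150 to 51 before the start: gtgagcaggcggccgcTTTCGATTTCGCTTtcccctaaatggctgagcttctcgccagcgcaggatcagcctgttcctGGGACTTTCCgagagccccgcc
TAP2, chr6:32838765-32838814, minus strand, bases 75 to 26 before the start: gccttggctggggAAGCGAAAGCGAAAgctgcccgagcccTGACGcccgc
TAPBP, chr6:33314079-33314148, minus strand, bases 70 to 1 before the start: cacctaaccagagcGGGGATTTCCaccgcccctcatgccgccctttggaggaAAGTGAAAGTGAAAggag

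In the 250 bases before the start, HLA-B, HLA-C and B2M each held all 4 elements, a set found in 0.0598% of 35116 promoter windows of the same length. Alone, the IRF core is in 20.3% of windows, the NF-kB consensus in 9.96%, the CCAAT box in 32% and the CRE core in 21.2%. HLA-F held the IRF core and CCAAT boxes but neither TGACG nor the NF-kB consensus. TAP1 and TAPBP held the IRF core and the NF-kB consensus without TGACG, TAP1 with a CCAAT box upstream of the stretch shown, and TAP2 held the IRF core and TGACG alone. The longer core of the interferon-stimulated response element, which overlaps the IRF core and is in 3.02% of windows, was found in HLA-F, B2M, TAP1, TAP2 and TAPBP, and not in HLA-B or HLA-C. The androgen receptor hexamer AGAACA, in 12.4% of windows, was in none of the 7. A second RefSeq start of TAP1 held none of these letters. The motifs were chosen from what is known of class I promoters, and a match is a description, not a site. HLA-B, HLA-C and B2M hold the same 4 elements, and of these B2M was not called higher with ENZ as deposited, though it was after quantile normalization. TAPBP, without a CCAAT box or TGACG, was called higher with either agent. The part of these elements in the levels was not tested.

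By RefSeq on GRCh38, 7 members lie on chromosome 6: HLA-F (29723434 to 29738532), HLA-E (30489509 to 30494194), HLA-C (31268749 to 31272092), HLA-B (31353875 to 31357179), TAP2 (32821831 to 32838739), TAP1 (32845209 to 32853704) and TAPBP (33299694 to 33314078). B2M is on chromosome 15 (44711517 to 44718145) and NLRC5 on chromosome 16 (56989557 to 57083520).

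Depth was read from the steps between low FPKM values, which put the libraries at about 15400000 to 24400000 fragments. With the longest coding transcript of GENCODE release 29 as the length, values of HLA-F rest on about 6 to 23 fragments per library, TAP1 on 25 to 73, NLRC5 on 43 to 154, HLA-B on 85 to 574 and B2M on 1261 to 3351. KLK3, an androgen-induced gene, stood at 996 ± 26.3 FPKM with DMSO, 224 ± 1.24 with ENZ and 2800 ± 1.5 with EPZ (SD, n = 2), and luminal markers were present in every group. Leukocyte markers CD3E, MS4A1 and TYROBP were at 0 in all libraries and PTPRC reached at most 0.0412 FPKM. The summed level of 12 leukocyte markers was 7.48 to 7.67 FPKM in DMSO, 6.57 to 7.39 under ENZ, 10.6 to 11.2 under EPZ and 12.1 to 12.7 in Combination, nearly all of it CD68, a lysosomal gene that many cells express. The 7 fibroblast markers summed to 2.43 to 2.59 FPKM in DMSO, 3.64 to 4.7 with ENZ, 3.04 to 3.1 with EPZ and 10.9 to 11.1 in Combination, of which COL1A1 made 10.5, with COL1A2 at 0. The part of these genes in the results was not tested. A level in bulk RNA does not tell more expressing cells from more RNA per cell.

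**Figure D1:**
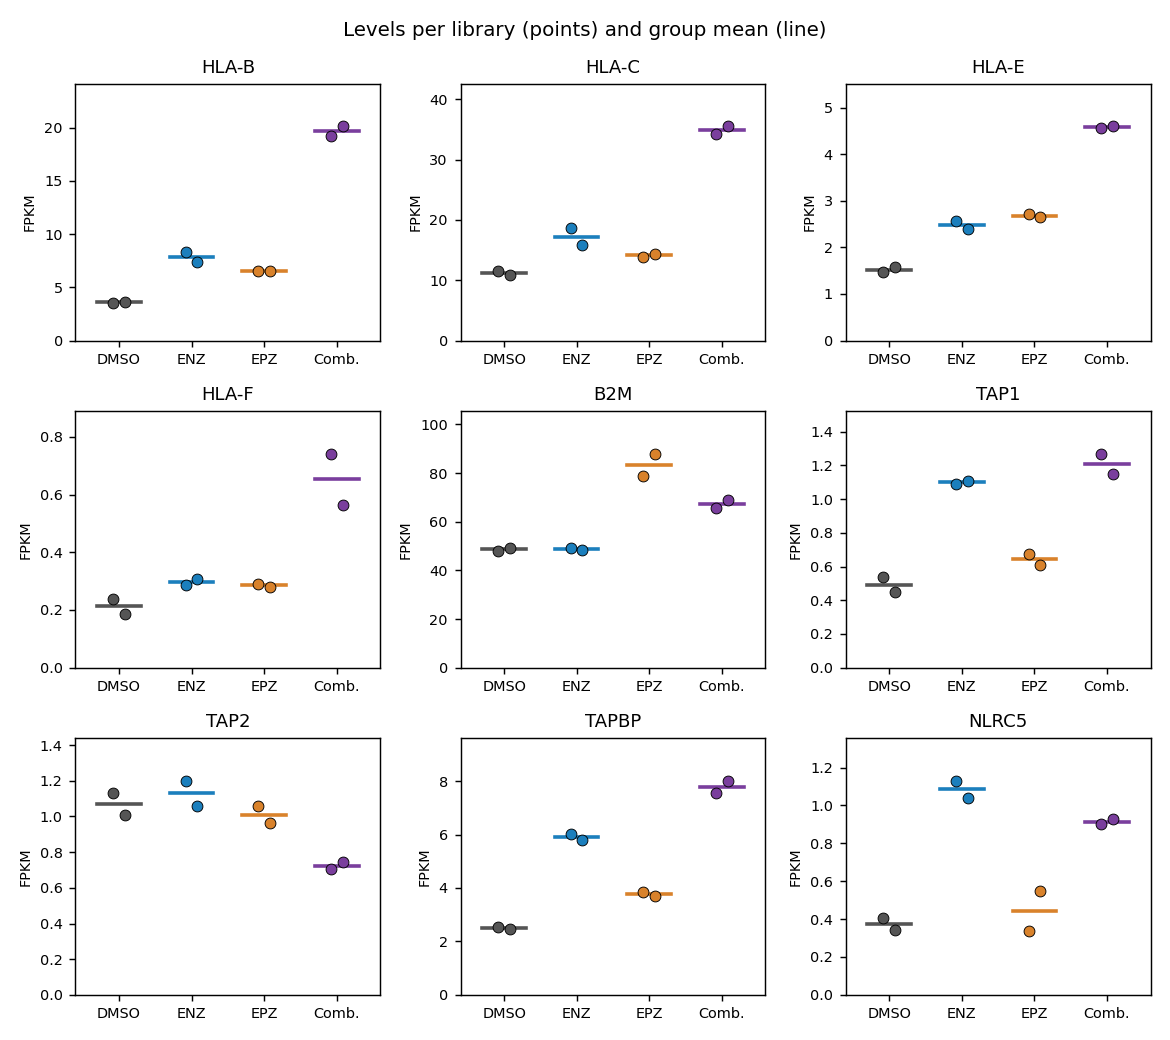
FPKM of the 9 genes in each library (points) with the group mean (line), each panel from 0 on its own axis, 2 libraries per group. HLA-B, HLA-C, HLA-E, HLA-F, TAP1 and TAPBP are highest in Combination, B2M in EPZ (as deposited; quantile normalization puts Combination higher) and NLRC5 under ENZ, and TAP2 is lowest in Combination.

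Among the heavy chain genes, HLA-B stood at 3.55 and 3.65 FPKM in DMSO, 8.28 and 7.34 under ENZ, 6.53 and 6.53 under EPZ, and 19.2 and 20.1 in Combination. No library of one group reached into another, so the order by values was DMSO, EPZ, ENZ, Combination, with EPZ not tested against ENZ. Such separation was common: 77.1% of all tested genes did not overlap DMSO with ENZ, 82.2% with EPZ and 90.9% with Combination. Against DMSO its log2 change was 0.94 (SE 0.071, limma adjusted p = 7.02e-06) with ENZ, 0.71 (SE 0.071, adjusted p = 3.6e-05) with EPZ and 2.17 (SE 0.071, adjusted p = 2.95e-09) with Combination. Those are folds of 2.17, 1.81 and 5.46.

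HLA-C was the most abundant heavy chain of the 4, at 11.6 and 10.9 FPKM in DMSO, 18.7 and 15.8 under ENZ, 13.9 and 14.4 under EPZ, and 34.2 and 35.5 in Combination. The groups did not overlap and kept the order of HLA-B. Its folds were smaller: 1.53 with ENZ (log2 change 0.57, SE 0.079), 1.26 with EPZ (0.30, SE 0.079, limma adjusted p = 0.00917) and 3.09 with Combination (1.55, SE 0.079). The EPZ call was lost without the second DMSO library (0.26, adjusted p = 0.0623) and without the second EPZ library (0.28, adjusted p = 0.0588).

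HLA-E stood at 1.47 and 1.58 FPKM in DMSO, 2.56 and 2.40 under ENZ, 2.71 and 2.66 under EPZ, and 4.56 and 4.60 in Combination. Here EPZ lay above ENZ by a small margin without overlap, a difference that was not tested. Lack of overlap was common among all tested genes, at 77.1% or more in each pair of groups counted. The log2 changes of HLA-E were 0.46 (SE 0.077) with ENZ, 0.54 (SE 0.077) with EPZ and 1.14 (SE 0.077) with Combination, or folds of 1.62, 1.76 and 3.

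HLA-F was barely detected, at 0.239 and 0.186 FPKM in DMSO, 0.287 and 0.306 under ENZ, 0.291 and 0.279 under EPZ, and 0.742 and 0.563 in Combination. The single-agent groups overlapped each other, and Combination was 3.07-fold above DMSO. Without the filter, HLA-F passed for Combination against DMSO (log2 change 0.45, SE 0.058, adjusted p = 0.000802), not for ENZ (0.10, 95% interval -0.04 to 0.24) or EPZ (0.08, -0.06 to 0.23). With quantile normalization added, the Combination call was lost (0.08, adjusted p = 0.301).

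Class I heavy chain genes resemble each other, and reads can be shared among them. Of 50-base windows of the longest coding transcript, 2.54% in HLA-B, 6.71% in HLA-C, 4.66% in HLA-E and 1.51% in HLA-F also occur word for word in a transcript of another gene among the members and the other class I genes of the annotation. B2M, TAPBP and NLRC5 share none with these genes. The sources used here do not say how shared reads were assigned. In the table, 5 class I symbols outside the members have 8 of 40 values at less than 0.9 of the worth of 1 fragment, or 20%, against 4.48% for genes with a single transcript. That worth was taken from the longest annotated transcript of each gene. The gene length behind the deposited values is not given, and it can differ from this for genes with several transcripts. The shares may therefore not be alike in measure. The windows come from the reference alleles, and the alleles of C4-2B may differ from them, so the separate level of each heavy chain gene is uncertain.

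Moving reads between heavy chain genes of like length hardly changes the sum of their FPKM. The longest coding transcripts of HLA-B, HLA-C and HLA-F have 1547, 1554 and 1635 bases. That of HLA-E has 2601, and FPKM is divided by length, so the sum can still shift with how reads are split. The sum over the 4 genes was 16.9 and 16.3 FPKM in DMSO, 29.8 and 25.9 under ENZ, 23.4 and 23.9 under EPZ, and 58.7 and 60.7 in Combination. The groups did not overlap, and the folds were 1.68, 1.42 and 3.6. HLA-B made 21.1% and 22.3% of the 4-gene sum in DMSO and 32.7% and 33.1% in Combination, while the share of HLA-C went from 68.8% and 66.8% to 58.2% and 58.4%.

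The light chain gene B2M was the most abundant member in every library. It stood at 47.9 and 49.3 FPKM in DMSO, 49.0 and 48.2 under ENZ, 79.0 and 88.0 under EPZ, and 65.7 and 68.9 in Combination. ENZ lay inside the range of DMSO, and Combination lay between DMSO and EPZ without overlap. B2M rose 1.72-fold with EPZ (log2 change 0.77, SE 0.063, limma adjusted p = 1.03e-05) and 1.38-fold with Combination (0.46, SE 0.063, adjusted p = 7.02e-05). With ENZ its log2 change was 0.00 (95% interval -0.14 to 0.14, adjusted p = 0.998), although it passed after quantile normalization (0.20, adjusted p = 0.0132). The ratio of B2M to the 4 summed heavy chain genes was 2.93 ± 0.127 in DMSO, 1.75 ± 0.163 under ENZ, 3.53 ± 0.226 under EPZ and 1.13 ± 0.0141 in Combination (SD, n = 2). The ratio was lowest in Combination, and it covers these 4 heavy chain genes only.

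**Figure D2:**
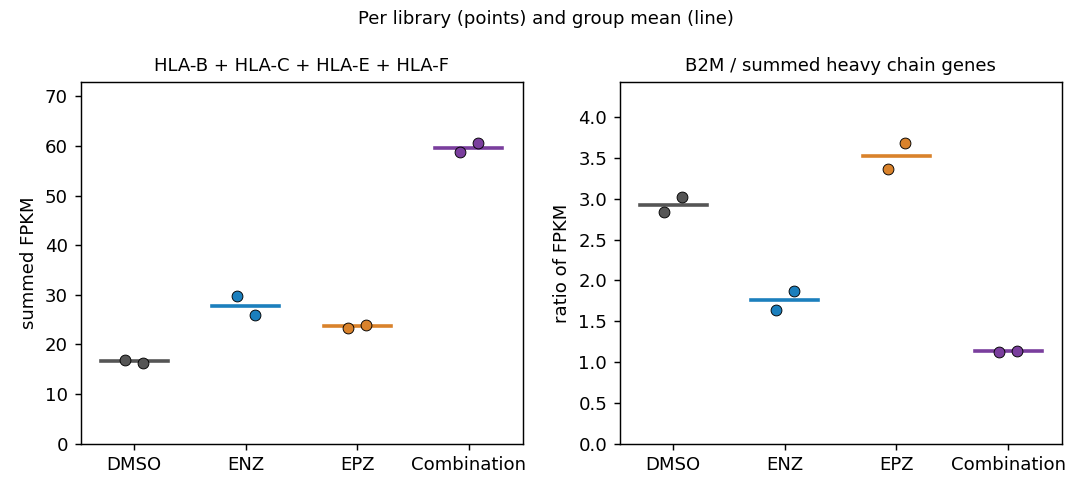
Left, summed FPKM of HLA-B, HLA-C, HLA-E and HLA-F; right, FPKM of B2M divided by that sum; points are libraries and lines are group means, 2 libraries per group. The sum is highest in Combination (58.7 and 60.7), where the ratio is lowest (1.12 and 1.14).

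The transporter genes parted. TAP1 stood at 0.539 and 0.447 FPKM in DMSO, 1.09 and 1.11 under ENZ, 0.674 and 0.611 under EPZ, and 1.27 and 1.15 in Combination. It was 2.24-fold higher with ENZ and 2.46-fold higher with Combination, with no overlap with DMSO. In the fit without the filter it passed for ENZ (log2 change 0.50, SE 0.063, limma adjusted p = 0.00244) and Combination (0.57, SE 0.063, adjusted p = 0.000389), and not for EPZ (0.14, 95% interval -0.01 to 0.29, adjusted p = 0.159). The Combination call was lost when quantile normalization was added (0.16, adjusted p = 0.07).

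TAP2 was at 1.13 and 1.01 FPKM in DMSO, 1.20 and 1.06 under ENZ, 1.06 and 0.961 under EPZ, and 0.707 and 0.743 in Combination. The first 3 groups overlapped, and Combination lay below all of them. Its ratio to DMSO was 0.675 in Combination (log2 change -0.27, SE 0.068, limma adjusted p = 0.0161 without the filter), and -0.67 (adjusted p = 0.000276) with quantile normalization added. TAP1 per TAP2 went from 0.458 ± 0.024 in DMSO to 0.98 ± 0.0997 under ENZ, 0.637 ± 0.00283 under EPZ and 1.67 ± 0.184 in Combination (SD, n = 2).

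TAPBP, which encodes tapasin, stood at 2.55 and 2.47 FPKM in DMSO, 6.01 and 5.78 under ENZ, 3.83 and 3.71 under EPZ, and 7.57 and 8.01 in Combination. The groups did not overlap. Its log2 change was 0.98 (SE 0.070) with ENZ, the highest of the 5 tested members there, 0.44 (SE 0.070) with EPZ and 1.32 (SE 0.070) with Combination, or folds of 2.35, 1.5 and 3.1.

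NLRC5, the transactivator gene, was at 0.405 and 0.344 FPKM in DMSO, 1.13 and 1.04 under ENZ, 0.335 and 0.546 under EPZ, and 0.902 and 0.927 in Combination. EPZ overlapped DMSO, and ENZ lay above Combination. Without the filter it passed for ENZ (log2 change 0.60, SE 0.080, limma adjusted p = 0.00289, 2.9-fold) and Combination (0.48, SE 0.080, adjusted p = 0.00255, 2.44-fold), and not for EPZ (0.06, 95% interval -0.13 to 0.26). The difference of NLRC5 between Combination and ENZ did not pass (-0.12, 95% interval -0.32 to 0.07), while the heavy chain genes were higher in Combination than in ENZ. The call of NLRC5 for Combination against DMSO was lost when quantile normalization was added (0.07, adjusted p = 0.52).

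Read against all tested genes, 4 of the 5 members rose with ENZ, where 27.9% of tested genes were called higher and 28.8% lower. With EPZ 5 of 5 rose, against 23.4% higher and 32.4% lower, and with Combination 5 of 5, against 33.3% higher and 47.4% lower. Calls in either direction were thus common among all genes. The median change over all tested genes was 0.00487 with ENZ, -0.0456 with EPZ and -0.15 with Combination (-0.0291 after quantile normalization). Of the 4 members under the filter, TAP1 and NLRC5 were called higher with ENZ (17.1% of genes higher without the filter) and HLA-F, TAP1 and NLRC5 with Combination (31.5%), where TAP2 was called lower (27.4% lower). With EPZ 0 of these 4 passed limma's test (14.6% of genes higher), and 0 had a 95% interval, which is not adjusted, that left out 0. All 3 comparisons share the DMSO libraries. The shares without the filter, here and below, cover all 21026 genes, expressed ones included, and not low genes alone. Dropping the filter took higher calls in Combination against DMSO from 3957 to 6633 and lower calls from 5634 to 5758. Against ENZ they went from 3001 to 4956 and from 5402 to 5351, and against EPZ from 3463 to 5480 and from 5187 to 5364. Higher calls were thus the common kind among low genes.

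**Figure D3:**
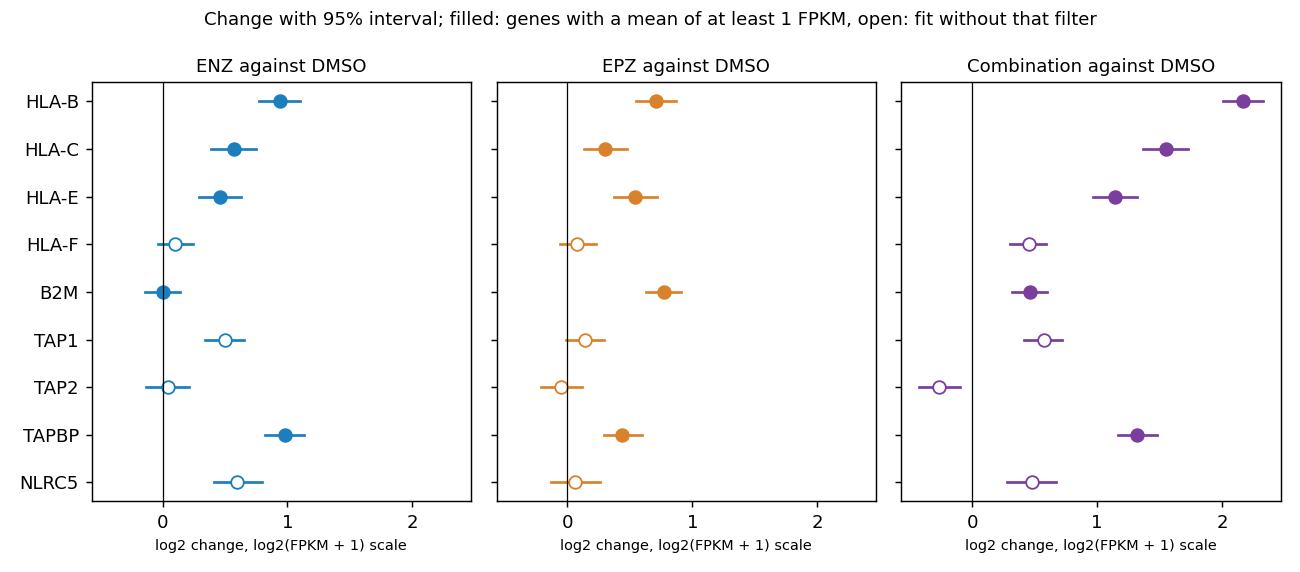
Log2 change against DMSO on the log2(FPKM + 1) scale with 95% intervals; filled points come from the fit of 11874 genes and open points from the fit of 21026 genes without the expression filter. In the Combination panel HLA-B lies furthest right at 2.17, and TAP2 is the only member left of 0, at -0.27.

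Combination was then set against each single agent. Against ENZ all 5 tested members were higher (25.3% of genes higher and 45.5% lower): HLA-B by 1.23 (SE 0.071), HLA-C by 0.98 (SE 0.079), HLA-E by 0.68 (SE 0.077), B2M by 0.46 (SE 0.063) and TAPBP by 0.35 (SE 0.070) on the log2 scale, the highest limma adjusted p being 0.00137 for TAPBP. Without the filter HLA-F was higher (0.35, adjusted p = 0.00338; 23.6% of genes higher) and TAP2 lower (-0.30, adjusted p = 0.012; 25.4% lower). TAP1 (0.07, 95% interval -0.08 to 0.22) and NLRC5 (-0.12, -0.32 to 0.07) did not pass. With quantile normalization added, NLRC5 was called lower (-0.33, adjusted p = 0.0219) and HLA-F did not pass (0.10, adjusted p = 0.225).

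Against EPZ, 4 of 5 were higher (29.2% of genes higher): HLA-B by 1.46 (SE 0.071), HLA-C by 1.24 (SE 0.079), TAPBP by 0.88 (SE 0.070) and HLA-E by 0.60 (SE 0.077). B2M was lower by this scale (-0.30, SE 0.063, limma adjusted p = 0.00154; 43.7% of genes lower), but higher after quantile normalization (0.18, adjusted p = 0.0116), so its direction depends on the scaling. Without the filter TAP1, NLRC5 and HLA-F were higher (0.43, 0.41 and 0.36; 26.1% of genes higher) and TAP2 lower (-0.22, adjusted p = 0.0378; 25.5% lower). With quantile normalization added those 3 higher calls were lost (TAP1 0.16, adjusted p = 0.0702; NLRC5 0.16, adjusted p = 0.194; HLA-F 0.13, adjusted p = 0.133), and that of TAP2 was not (-0.47, adjusted p = 0.00169).

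The interaction asks whether Combination departs from the sum of the single-agent changes on the log2 scale. It was positive for HLA-B (0.52, SE 0.101, limma adjusted p = 0.00306) and HLA-C (0.67, SE 0.112, adjusted p = 0.00133), where 9.99% of tested genes were called positive and 29.6% negative. In folds, HLA-B reached 5.46 where the product of its single-agent folds is 3.93, and HLA-C 3.09 where the product is 1.93. HLA-E (0.14, 95% interval -0.11 to 0.38, adjusted p = 0.348) and TAPBP (-0.09, -0.32 to 0.13, adjusted p = 0.489) did not pass, although HLA-E did after quantile normalization (0.34, adjusted p = 0.0302). B2M was negative (-0.31, SE 0.089, adjusted p = 0.0218), a call lost after quantile normalization (-0.02, adjusted p = 0.887) and after median-of-ratios scaling (-0.22, adjusted p = 0.0649). It was also lost without the first DMSO library (-0.28, adjusted p = 0.0796), the second DMSO library (-0.33, adjusted p = 0.0511), the second EPZ library (-0.23, adjusted p = 0.0985) or the first Combination library (-0.27, adjusted p = 0.0792). Without the filter 0 of the 4 low members passed limma's test (8.27% of genes positive and 15% negative), while 2 had an unadjusted 95% interval that left out 0: HLA-F (0.26, 0.06 to 0.46, adjusted p = 0.0677) and TAP2 (-0.26, -0.49 to -0.02, adjusted p = 0.115).

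**Figure D4:**
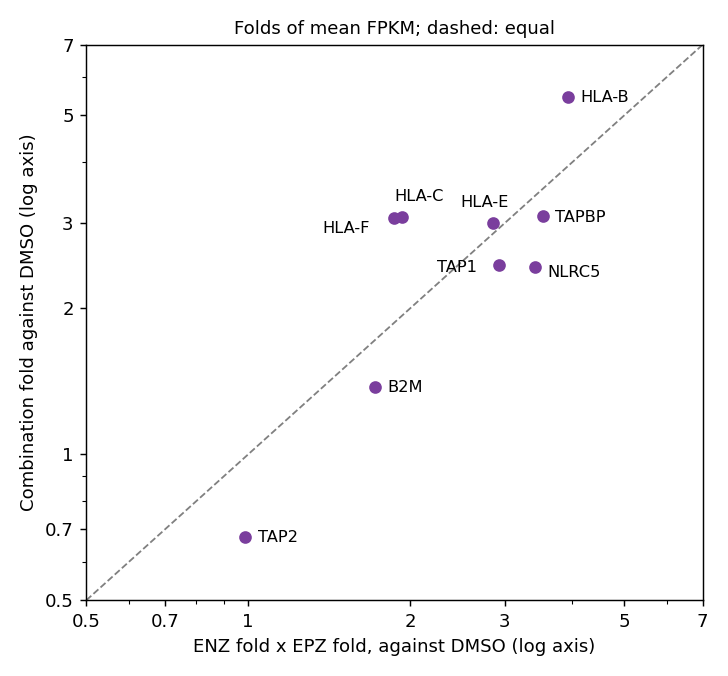
Fold of mean FPKM in Combination against DMSO (y) over the product of the ENZ and EPZ folds (x), both on log axes, with 1 point per gene and a dashed line where they are equal. HLA-B (3.93, 5.46), HLA-C (1.93, 3.09) and HLA-F (1.87, 3.07) lie above the line, HLA-E (2.85, 3) near it, and B2M, TAP1, TAP2, TAPBP and NLRC5 below it.

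Other steps of the pathway are given as counts of genes called, to be read against the shares of all tested genes: 27.9% higher and 28.8% lower with ENZ, 23.4% and 32.4% with EPZ, and 33.3% and 47.4% with Combination. All 14 genes of the constitutive proteasome core, which makes most of the peptides, fell in Combination, with a median log2 change of -1.22 against -0.15 over all tested genes. PSMB5, a catalytic subunit gene, went from 82.1 to 26.5 FPKM (-1.6, SE 0.063) and PSMA7 from 242 to 87.3 (-1.46, SE 0.066, or -0.77 after quantile normalization). With ENZ 12 of 14 fell (median -0.38, against 0.00487 over all tested genes) and with EPZ 8 of 14 (median -0.21, against -0.0456), and the counts after quantile normalization were 14, 6 and 1 for Combination, ENZ and EPZ, with a Combination median of -0.64. The immunoproteasome genes PSMB8 and PSMB9, named after their values were seen, stayed at or below 0.172 and 0.186 FPKM in every library. Of the 4 tested genes of that list, PSMB10 fell in Combination (-0.66, SE 0.085), PSME3 fell (-1.26, SE 0.065) and PSME2 fell slightly (-0.19, adjusted p = 0.0467), although PSME2 rose after quantile normalization (0.25, adjusted p = 0.0124). PSME1, an activator subunit gene, rose with ENZ (0.52, SE 0.060), fell with EPZ (-0.37, SE 0.060) and did not pass in Combination (0.13, adjusted p = 0.0619). After quantile normalization PSME1 did pass in Combination (0.71, adjusted p = 4.48e-06).

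Of 8 tested loading partners and trimming enzymes 2 rose and 4 fell in Combination, with a median of -0.18, close to the shares and the median of -0.15 over all tested genes. ERAP1, which trims peptides in the endoplasmic reticulum, rose from 1.44 to 6.3 FPKM (1.58, SE 0.088), and TAPBPL, which encodes the tapasin-related peptide editor TAPBPR, from 2.82 to 13.7 (1.95, SE 0.114). Both also rose with ENZ (1.04 and 0.87) and EPZ (0.66 and 0.67). HSPA5, a chaperone gene, rose with EPZ (0.79, SE 0.058) and changed by -0.29 in Combination, or by 0.37 after quantile normalization. CANX, the calnexin gene, fell from 88.8 to 45.9 FPKM (-0.94, SE 0.075; -0.31 after quantile normalization). CALR and PDIA3, chaperone genes of the loading complex named after their values were seen, changed by -0.39 and -0.37 in Combination as deposited but by 0.46 and 0.32 after quantile normalization, so their direction depends on the scaling. After quantile normalization the list stood at 6 higher and 1 lower in Combination. With EPZ 7 of 8 rose (median 0.46), where 23.4% of all tested genes did. With ENZ 3 of 8 rose as deposited (median 0.09), near the general share of 27.9%. After quantile normalization 6 of 8 rose with ENZ (median 0.37), so this count depends on the scaling.

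**Figure D5:**
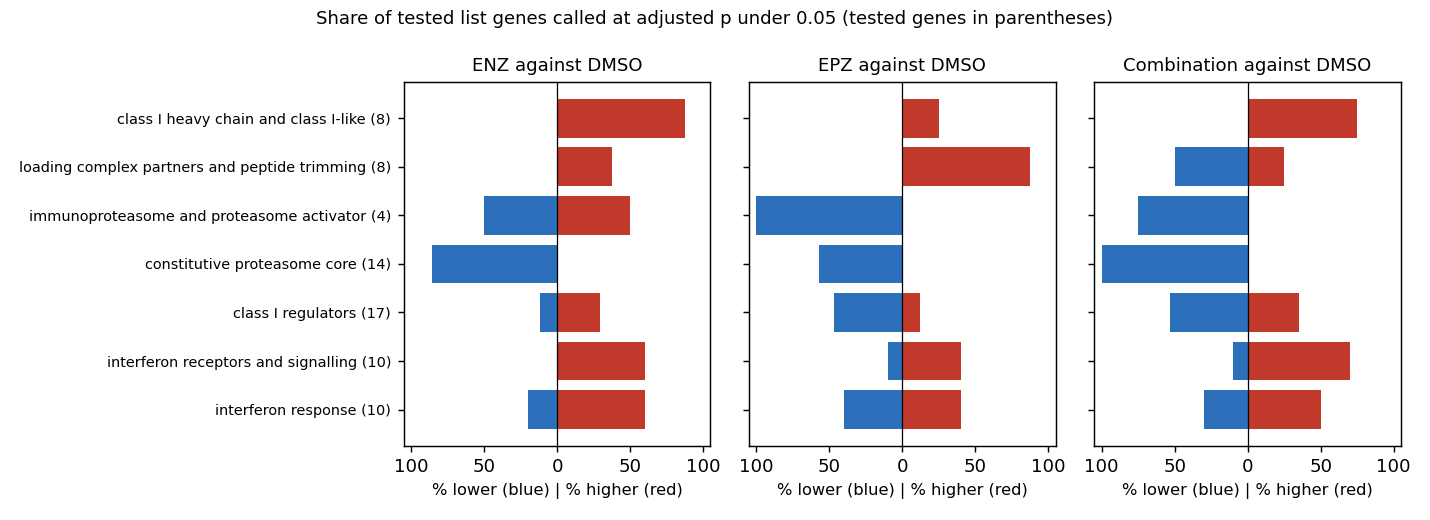
Percent of tested genes of each list called higher (red, right) or lower (blue, left) against DMSO at adjusted p under 0.05, members left out, with the number tested in parentheses. In Combination all 14 genes of the constitutive proteasome core are lower, while 6 of 8 class I-like genes are higher and 0 lower, or 4 higher and 1 lower after quantile normalization. Some of those 6, MR1 among them, passed the expression filter only through the groups where they are high.

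Of 8 tested heavy chain and class I-like genes outside the members, 7 rose with ENZ, 2 with EPZ and 6 with Combination, and 0 fell by limma's test in any of the 3. The shares of all tested genes called higher were 27.9%, 23.4% and 33.3%, so the EPZ count is near the general share. After quantile normalization the counts were 5, 0 and 4 higher, with 1 lower in Combination. MR1, which presents vitamin B metabolites, rose from 0.165 to 3.03 FPKM in Combination (1.79, SE 0.109). With ENZ and EPZ its means were 0.712 and 0.407 FPKM, so MR1 passed the filter only through Combination, where it is high. HFE, an iron regulator of class I fold, rose from 1.96 to 7.05 with ENZ (1.44, SE 0.082) and to 5.44 with Combination (1.12, SE 0.082), and stood at 2.04 with EPZ (0.04, adjusted p = 0.688). FCGRT, the heavy chain gene of the neonatal Fc receptor, rose with ENZ (1.19, SE 0.118), EPZ (0.40, SE 0.118, not passing after quantile normalization at 0.25) and Combination (1.51, SE 0.118). Its means in DMSO and EPZ were 0.327 and 0.749 FPKM, so FCGRT passed the filter through ENZ and Combination. The counts of rises in this list thus include genes that the filter kept because they are high in those groups. All 12 class II genes lay under the filter and were not tested.

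Among class I regulators, 6 rose and 9 fell of 17 in Combination (8 and 6 after quantile normalization), near the 33.3% and 47.4% of all tested genes. IRF1, a transcription factor of class I and TAP1 promoters, stood at 0.425 FPKM in DMSO, 1.28 under ENZ, 0.389 under EPZ and 2.13 in Combination, rising with ENZ (0.68, adjusted p = 0.000365) and Combination (1.13, adjusted p = 2.73e-06). IRF1 passed the filter only through ENZ and Combination, where it is high, and it counts among the 6 that rose. EZH2 itself fell with EPZ (-0.71, SE 0.072) and Combination (-1.86, SE 0.072), and SUZ12, its PRC2 partner, by -0.51 (SE 0.079) and -0.84 (SE 0.079). Of 10 interferon receptor and signalling genes 7 rose and 1 fell in Combination (33.3% and 47.4% of all tested genes), with JAK1 at 1.52 (SE 0.104), STAT2 at 1.28 (SE 0.058), IFNGR2 at 1.03 (SE 0.083) and IRF9 at 0.87 (SE 0.111). Of 10 tested interferon response genes 5 rose and 3 fell in Combination, where genes in general also went both ways (33.3% and 47.4%). Those named by smallest p changed in Combination by these log2 values: PARP14 by 1.91 (SE 0.080), IFI6 by 1.53 (SE 0.138), DDX58 by 1.11 (SE 0.090) and OAS3 by -0.99 (SE 0.076). The other 17 genes of that list lay under the filter and were not tested, so the counts leave them out. By mean FPKM most of them stood higher in Combination than in DMSO, at low levels. Low genes in general leaned that way. Dropping the filter took genes called higher in Combination from 3957 to 6633, and genes called lower from 5634 to 5758. The rise is thus not particular to this list. Examples from the 17, named after their values were seen, are IFI44 (0.261 to 1.69) and GBP2 (0.0571 to 0.777). IFITM1 stood lower (0.85 to 0.334), and XAF1, CXCL9 and IDO1 were at 0 in both groups.

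The genes most like the mean pattern of the 5 tested members, by Pearson's r of log2(FPKM + 1) over the 8 libraries among genes whose group means span at least 1 log2 unit, were CCDC159 (0.998), LINGO1 (0.998), GDPD5 (0.997), ITM2B (0.997) and PEX11G (0.996). CCDC159 went from 8.82 FPKM in DMSO to 17.6 under ENZ, 19.2 under EPZ and 43.2 in Combination, and ITM2B from 54.3 to 77.5, 80.6 and 131. These are descriptions over 4 groups of 2 libraries, chosen from many genes. The members' own r with that mean was 0.998 for HLA-E, 0.981 for HLA-B, 0.946 for HLA-C, 0.897 for TAPBP and 0.536 for B2M.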

How the data were processed

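RNA was sequenced from 8 libraries of C4-2B cells (NEBNext Ultra libraries, Illumina instrument, per the labels' protocols). The authors deposited FPKM values, 1 column per library. STAR and hg38 appear in the submitters' processing notes, without versions or roles. No source used here names the counting tool, annotation or strand setting. Each column was matched to its library by the short name in the labels, and the titles gave groups and replicate numbers.

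Deposited FPKM were put on the log2(FPKM + 1) scale, and the 11874 genes averaging 1 FPKM or more were tested. A linear model of the 4 groups was fitted by limma (version 3.58.1, under R 4.3.3) using its moderated two-sided test, an expression trend (5.47 prior and 4 residual degrees of freedom) and Benjamini-Hochberg adjustment over all tested genes in each of 6 comparisons. The code was tested on simulated data. Depth was estimated from genes with a single transcript in GENCODE release 29. Descriptions were made in Python 3.11.15 (pandas 2.3.3, numpy 2.4.6) and figures in matplotlib 3.10.9. The named genes are the 9 members, at most 4 genes of each of 8 pathway lists by smallest p, and the 5 genes of most similar pattern. The members and lists were chosen with earlier results of these data known, and some further class I genes are not reported here. Alternatives were a pseudocount of 0.1, no filter, a stricter filter (mean 5 FPKM), median-of-ratios scaling, quantile normalization, only the compared groups, the replicate block and leaving out each library. Fits without the filter that also used a pseudocount of 0.1 or either scaling were chosen after seeing the data.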

Additional observations from a re-analysis of the deposited data

Results flagged for a closer look

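The effect of EPZ differed with and without ENZ, by limma's interaction term, for HLA-B (0.52), HLA-C (0.67) and B2M (-0.31). HLA-B and HLA-C passed under each alternative that was run. The B2M call was lost under both scalings and on leaving out, in turn, the first DMSO, second DMSO, second EPZ or first Combination library.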

How the results depend on the processing

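Counts of members called rest on how many could be tested. The share of all genes called was computed only for the main fit and the fit without the filter, and is given above. Counts under the other settings have no such share beside them, so they show only how the calls moved. At a mean of at least 5 FPKM 3 members were tested, and the counts of higher members were 2 for ENZ, 3 for EPZ, 3 for Combination against DMSO, 3 against ENZ and 2 against EPZ. Without the filter 9 were tested: Combination had 8 higher and 1 lower against DMSO, 1 lower against ENZ, and 7 higher and 2 lower against EPZ. With a pseudocount of 0.1 added there were 8 higher and 1 lower against DMSO, 1 lower against ENZ and 7 higher against EPZ. With median-of-ratios scaling added there were 8 and 1, then 1 lower, then 7 and 2, with 0 negative interactions. With quantile normalization added there was 1 lower against DMSO, 2 lower against ENZ and 0 negative interactions. On the filtered genes, quantile normalization gave 0 lower for Combination against EPZ and 0 negative interactions, and median-of-ratios scaling 0 negative interactions. Leaving out each library gave 0 to 1 negative interactions. Signs turned for B2M with ENZ, at -0.0774 after median-of-ratios scaling and -0.0202 to 0.0207 on leaving out each library (negative without the first DMSO or first ENZ library); for B2M in Combination against EPZ, 0.18 after quantile normalization; and for the TAPBP interaction, 0.14 after quantile normalization. The cause was not tested. The replicate block changed no call of a member (HLA-B in Combination 2.17, adjusted p = 1.54e-08). Deviations of same-numbered libraries correlated weakly across genes, at r = -0.0153 to 0.109, so no strong pairing by replicate number was seen. A weak correlation cannot tell whether same-numbered libraries were handled together. Depth limits HLA-F most, at about 6 to 23 fragments per library.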
